A study of Mus musculus with 12 samples.

Results

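The genes described here are 10 enzymes, channels, junction proteins and actin-associated proteins whose signal was far higher in nasal than in maxillary prominences of E10.5 mouse embryos. They were *Mme*, *Hpgd*, *Maob*, *Sgpp2* and *St8sia6* among the enzymes, the channel subunit *Htr3b*, the junction and adhesion genes *Cldn9* and *Pcdh20*, and the actin-associated genes *Fam107a* and *Eps8*. They were chosen from the Neo/Wt arrays as genes at least 4-fold higher in nasal than in maxillary tissue, with patterning factors left aside. 20 probe sets of the 45037 on the array that are not controls carried these names, and none of the 20 was shared with another gene. The 10 genes stand among 18193 genes with a probe set of their own. Where a gene had several probe sets, the one with the highest mean signal over the arrays was taken as its main probe set.

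RNA was from microdissected prominences pooled over embryos and hybridized to Affymetrix mouse arrays, 1 array per pool. There were 3 independent pools in each of 4 groups, namely Neo/Null nasal, Neo/Null maxilla, Neo/Wt nasal and Neo/Wt maxilla, all at E10.5. The sample labels name nasal or maxillary tissue for each pool, while the series' own design note lists mandibular tissue as well, which is not analysed here. Neo/Null embryos carry a hypomorphic *Tfap2a* allele, Neo, which retains a neomycin cassette and is named aflox in the labels, over a null allele. Neo/Wt embryos carry the same Neo allele over a wild-type allele and served as controls, so all 12 pools had 1 Neo allele. Neo/Null embryos develop a bilateral cleft and some have an open neural tube. Whether embryos with an open neural tube entered the pools was not given in the sources used here. Signals are log2 values, on which a difference of 2 is 4-fold, and levels of different probe sets cannot be set against each other.

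The nasal prominences surround the nasal pit, whose lining derives from the olfactory placode, and lie over the forebrain. The maxillary prominences belong to the first pharyngeal arch, and in both the surface ectoderm covers mesenchyme that comes largely from the neural crest. *Tfap2a* encodes AP-2α, a transcription factor active in the facial ectoderm and the neural crest. The 10 genes act in unlike processes: breakdown of peptides, prostaglandins, monoamines and a bioactive lipid, sialic acid transfer, serotonin-gated ion flow, cell-cell contact and the control of actin filaments.

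Promoter sequence from RefSeq (build GRCm38.p6) was at hand for 7 of the 10 genes, in 11 windows of 300 bases that run from 250 bases before to 50 bases after a transcription start. The windows were read for the AP-2 motif GCCNNNGGC, a palindrome that reads the same on both strands, because *Tfap2a* is the gene altered in these embryos. It was found in 2 of the 11 windows, against 16.6% of the 32851 mouse windows of this length. The homeodomain core TAATTA, also a palindrome, was found in 0 of the 11 windows and in 5.29% of all windows. The first 2 windows below hold the AP-2 motif, in capitals, and the last is that of *Sgpp2*, whose main probe set differed most between the prominences in Neo/Null. The *Hpgd* window lies at chr8:56294302-56294601 on the plus strand and its motif begins 201 bases before the start. The *Mme* window, 1 of 3 for that gene, lies at chr3:63295622-63295921 on the plus strand and its motif begins 74 bases before the start. The *Sgpp2* window lies at chr1:78310096-78310395 on the plus strand and holds neither motif. A match to these letters is a description of the sequence and not a bound site.
Hpgd: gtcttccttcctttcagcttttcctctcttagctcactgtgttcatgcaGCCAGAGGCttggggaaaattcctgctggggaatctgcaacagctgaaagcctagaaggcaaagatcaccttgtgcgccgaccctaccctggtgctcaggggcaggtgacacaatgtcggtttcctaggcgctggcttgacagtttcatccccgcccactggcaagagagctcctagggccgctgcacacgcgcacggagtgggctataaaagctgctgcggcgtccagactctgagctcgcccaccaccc
Mme: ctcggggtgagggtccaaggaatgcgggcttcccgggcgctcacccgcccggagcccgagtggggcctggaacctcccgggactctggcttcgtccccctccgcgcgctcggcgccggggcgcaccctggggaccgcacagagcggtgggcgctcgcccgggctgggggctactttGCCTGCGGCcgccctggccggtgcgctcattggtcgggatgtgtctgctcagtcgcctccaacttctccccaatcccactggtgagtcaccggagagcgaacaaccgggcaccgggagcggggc
Sgpp2: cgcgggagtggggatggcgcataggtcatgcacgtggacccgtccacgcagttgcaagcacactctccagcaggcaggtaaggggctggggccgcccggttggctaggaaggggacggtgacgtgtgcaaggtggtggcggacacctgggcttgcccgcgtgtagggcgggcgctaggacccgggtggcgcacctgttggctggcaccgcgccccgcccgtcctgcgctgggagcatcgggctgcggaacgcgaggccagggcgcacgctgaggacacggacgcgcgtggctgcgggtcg

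Marker genes of the prominences were examined first. Of 7 frontonasal mesenchyme genes measured, 4 were higher in Neo/Null nasal than maxillary tissue, the most *Pax7*, absent in maxilla, with a measured log2 difference of 4.54 (limma, adjusted p = 1.25e-06), and 2 were lower, *Prrx1* (-1.61) and *Prrx2* (-0.77). Of 8 maxillary and first arch mesenchyme genes, 5 were lower, with *Dlx1* at -4.22 and *Lhx8* at -5.99 (limma, adjusted p = 1.25e-06 and 5.79e-06), *Gsc* was higher (1.70), *Tbx22* did not pass and *Hand2* was absent in all 4 groups. The lists of other cell types also differed between the Neo/Null prominences. Of the measured markers, nasal tissue was higher for 8 of 11 olfactory placode and nasal pit genes, 6 of 11 forebrain genes and 3 of 14 surface ectoderm genes, and lower for 6 of 10 neuron genes, 5 of 8 macrophage genes and 3 of 8 endothelial genes. 1 placode gene (*Ebf2*) and 1 surface ectoderm gene (*Trp63*) went the other way. The summed linear signal of the placode list ranged over 3373-3594 in Neo/Null nasal pools and 2114-2166 in Neo/Null maxillary pools, and over 2950-3332 in Neo/Wt nasal pools and 1952-2139 in Neo/Wt maxillary pools. That of the forebrain list was 736-758 in Neo/Null nasal and 224-278 in Neo/Null maxillary pools, and 606-651 in Neo/Wt nasal and 294-329 in Neo/Wt maxillary pools, with *Nkx2-1*, *Sox1* and *Rax* called absent in all 4 groups. For surface ectoderm it was 8441-9928 in Neo/Null nasal and 6840-7906 in Neo/Null maxillary pools, and 7942-9367 in Neo/Wt nasal and 5989-7527 in Neo/Wt maxillary pools. The sum of the frontonasal mesenchyme list overlapped between the prominences. It was 4894-6046 in Neo/Null nasal and 5135-5654 in Neo/Null maxillary pools, and 5053-6032 in Neo/Wt nasal and 5325-6486 in Neo/Wt maxillary pools. The part of cell composition in the values below was not tested, and in such pools fewer cells of a type and less RNA per cell cannot be told apart. *Tfap2a* itself did not check the labels: its brightest probe set read 9.14, 9.19 and 9.07 in Neo/Null nasal pools, against 9.06, 9.12 and 9.19 in Neo/Wt nasal pools, and 9.22, 9.13 and 9.11 in Neo/Null maxillary pools, against 9.11, 9.10 and 9.08 in Neo/Wt maxillary pools. By quantitative PCR the authors report upstream *Tfap2a* exons lowered about equally among the mutant genotypes, and normally spliced transcript lowest in Neo/Null. Which part of the transcript this probe set reads was not examined.

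All 10 genes were higher in nasal than in maxillary tissue of Neo/Null embryos, whose arrays the rule for choosing the genes did not use. By limma on the 6 Neo/Null arrays, 10 of 10 main probe sets and 20 of 20 probe sets passed an adjusted p of 0.05, with adjustment over all 45037 probe sets. Of all probe sets, 2.33% passed in this direction, and of all main probe sets 3.58%. The differences of the main probe sets ran between 1.89 for *Eps8* and 3.75 for *Sgpp2* on the log2 scale, with a median of 2.71, against a median of 0.01 over all genes. In 20 of 20 probe sets every Neo/Null nasal pool lay above every Neo/Null maxillary pool, as in 11.3% of all probe sets. 8 of the 10 main probe sets were at least 4-fold higher, against 0.247% of all genes, and *Mme* (3.78-fold) and *Eps8* (3.72-fold) were just short of it. Of the 20 probe sets, 11 were at least 4-fold higher, against 0.138% of all probe sets. The difference in Neo/Null was not particular to the 10: of the 26 other genes that met the same limit in Neo/Wt, 25 were at least 4-fold higher in Neo/Null and 26 passed the test.

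In Neo/Wt, the values that chose the genes had a median of 2.60 on the log2 scale and ran between 2.05 for *Eps8* and 3.96 for *Cldn9*. 36 of the 18193 genes (0.198%) reached 4-fold there, and the 10 are a selection from these. Of the 20 probe sets, 13 reached 4-fold in Neo/Wt (0.107% of all probe sets did) and 7 did not. In 20 of 20 every Neo/Wt nasal pool lay above every Neo/Wt maxillary pool, as in 9.41% of all probe sets, and since these arrays chose the genes nothing is read from that count. Just inside the limit of 2 on the log2 scale were a second probe set of *Mme* (1422975_at, 2.00) and the main probe set of *Eps8* (2.05). Just outside were probe sets of *St8sia6* (1456440_s_at, 1.92) and *Eps8* (1422823_at, 1.74).

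**Figure D1:**
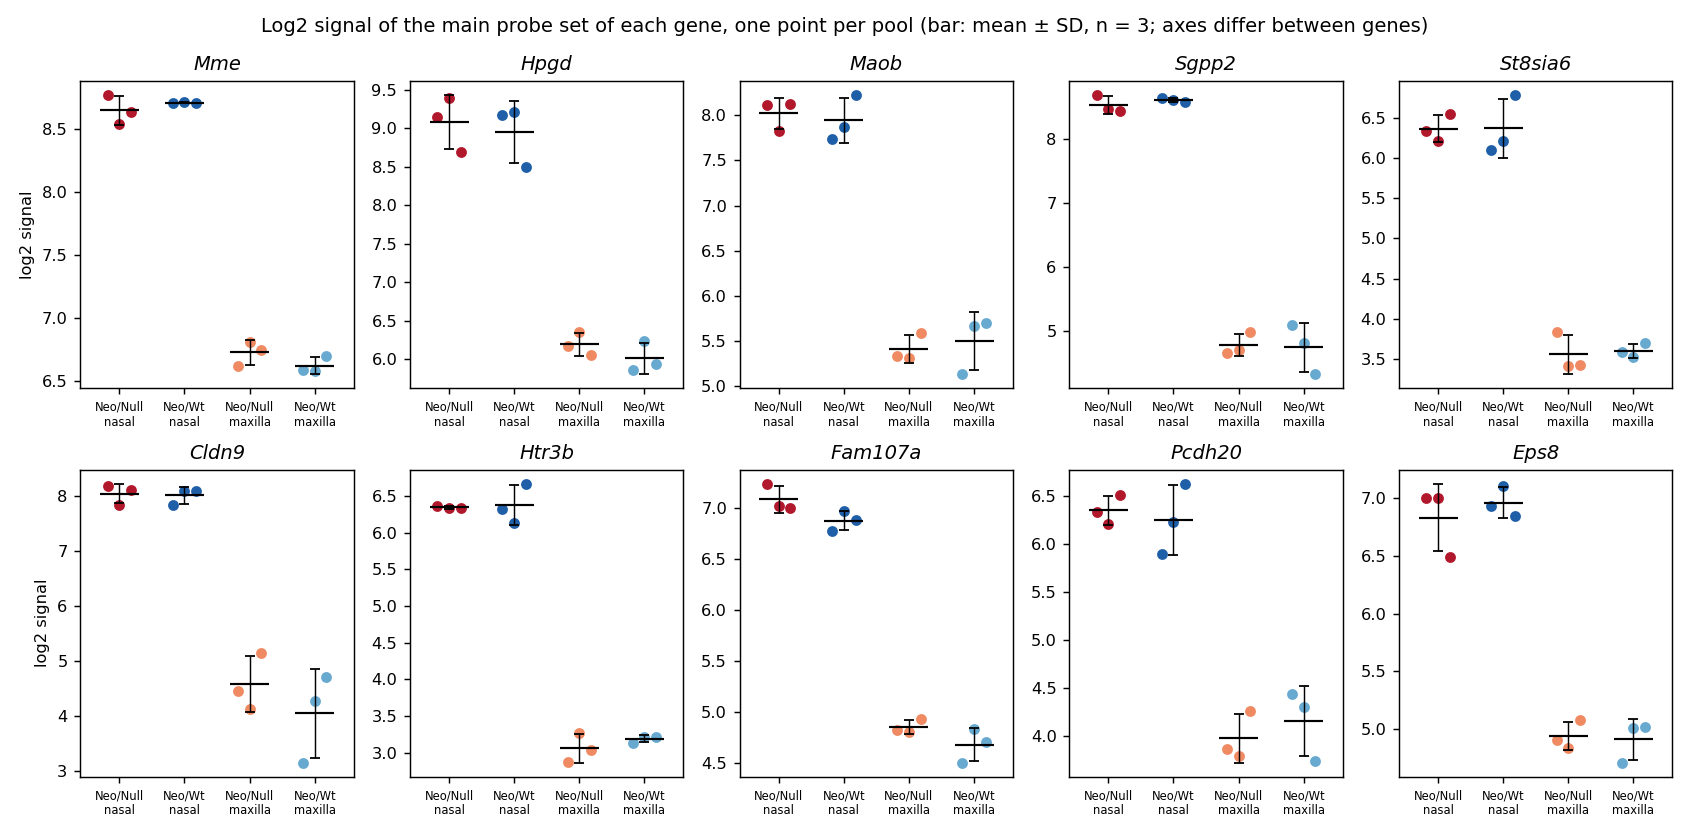
Log2 signal (vertical axis, a separate range for each gene) of the main probe set of the 10 genes in the 4 groups, with 1 point per pool and bars for the mean and SD (n = 3). In each panel the 6 nasal points lie above the 6 maxillary points, and the points of both genotypes overlap or lie close within a prominence.

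Among the enzymes, *Sgpp2* had the largest difference of a main probe set. It encodes a phosphatase of the endoplasmic reticulum that removes the phosphate from sphingosine-1-phosphate, a lipid signal. Its only probe set read 8.68, 8.47 and 8.43 in Neo/Null nasal pools, against 4.66, 4.70 and 4.98 in Neo/Null maxillary pools. In Neo/Wt it read 8.63, 8.60 and 8.57 in nasal pools, against 5.09, 4.81 and 4.33 in maxillary pools. The nasal pools of both genotypes lay within a narrow band and the maxillary pools of Neo/Wt were more spread. The Neo/Null difference was 3.75 (SE 0.11), or 13.4-fold (limma, adjusted p = 1.63e-06), and ranked 2 among the 18193 genes.

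*Hpgd*, the dehydrogenase that inactivates prostaglandins, read 9.15, 9.39 and 8.70 in Neo/Null nasal pools, against 6.17, 6.35 and 6.06 in Neo/Null maxillary pools. Its Neo/Wt values were 9.17, 9.21 and 8.49 in nasal pools, against 5.86, 6.24 and 5.94 in maxillary pools. In both genotypes nasal replicate 3 was the lowest nasal pool, and it still lay above every maxillary pool. The difference in Neo/Null was 2.88 (SE 0.17), or 7.39-fold (limma, adjusted p = 4.66e-05). A second, dimmer probe set (1419906_at), absent in maxillary tissue of both genotypes, differed by only 0.70 (SE 0.10) in Neo/Null, which is at least 1.63-fold (limma, adjusted p = 0.00681). In Neo/Wt it differed by 0.33, or at least 1.25-fold, and its detection in Neo/Wt nasal tissue was variable. Since its maxillary level is only a bound, its size cannot be set against that of the main probe set.

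*St8sia6* encodes a sialyltransferase that adds a sialic acid to a sialic acid already present on a glycan. Its main probe set read 6.33, 6.22 and 6.55 in Neo/Null nasal pools, against 3.84, 3.41 and 3.42 in Neo/Null maxillary pools. The Neo/Wt nasal pools read 6.10, 6.22 and 6.78, against 3.59, 3.53 and 3.70 in Neo/Wt maxillary pools. Here nasal replicate 3 was the highest pool in both genotypes. The Neo/Null difference was 2.81 (SE 0.13), or 7.01-fold (limma, adjusted p = 2.04e-05). Its 2 other probe sets differed by 2.10 (SE 0.18; 1456440_s_at, absent in maxilla) and 0.93 (SE 0.20; 1438566_at), and the last had the largest adjusted p among the 20 probe sets, 0.0381.

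*Maob*, a mitochondrial enzyme that oxidizes monoamines, had 1 probe set. It read 8.11, 7.83 and 8.12 in Neo/Null nasal pools, against 5.34, 5.31 and 5.59 in Neo/Null maxillary pools, and 7.74, 7.87 and 8.22 in Neo/Wt nasal pools, against 5.14, 5.67 and 5.70 in Neo/Wt maxillary pools. The Neo/Null difference was 2.61 (SE 0.11), or 6.09-fold (limma, adjusted p = 1.02e-05). *Mme* encodes neprilysin, a cell-surface metallopeptidase that cleaves small peptides. Its main probe set read 8.77, 8.54 and 8.64 in Neo/Null nasal pools, against 6.62, 6.81 and 6.75 in Neo/Null maxillary pools, and 8.71, 8.72 and 8.70 in Neo/Wt nasal pools, against 6.59, 6.59 and 6.70 in Neo/Wt maxillary pools. The difference in Neo/Null was 1.92 (SE 0.09), or 3.78-fold (limma, adjusted p = 1.58e-05), with a 95% confidence interval of 1.72 to 2.12 that includes the 4-fold limit. The Neo/Wt nasal pools of *Mme* differed by less than those of any other main probe set in any group (SD 0.0064).

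The channel subunit *Htr3b* was called absent in maxillary tissue of both genotypes. It encodes the B subunit of the serotonin-gated cation channel, which forms channels together with the A subunit. It read 6.37, 6.34 and 6.33 in Neo/Null nasal pools, against 2.88, 3.26 and 3.03 in Neo/Null maxillary pools. In Neo/Wt it read 6.32, 6.13 and 6.67 in nasal pools, against 3.14, 3.22 and 3.22 in maxillary pools. The signal in Neo/Null nasal tissue was at least 9.78-fold higher, the maxillary side being a bound, and the measured difference was 3.29 (SE 0.10; limma, adjusted p = 1.95e-06). Bounds given as at least a certain fold set the maxillary mean, raised where needed to the lowest signal called present, against the nasal mean, and here they equal the measured folds.

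*Cldn9*, a claudin of tight junctions, read 8.18, 7.84 and 8.10 in Neo/Null nasal pools, against 4.46, 4.13 and 5.14 in Neo/Null maxillary pools. In Neo/Wt it read 7.83, 8.09 and 8.09 in nasal pools, against 3.15, 4.28 and 4.70 in maxillary pools. The nasal pools were alike, whereas the maxillary pools had the widest spread of any of the main probe sets (SD 0.51 in Neo/Null and 0.80 in Neo/Wt). The Neo/Null difference was 3.46 (SE 0.23), or 11-fold (limma, adjusted p = 9.84e-05). Summed surface ectoderm markers read 7423, 6840 and 7906 in the Neo/Null maxillary pools and 5989, 6634 and 7527 in the Neo/Wt ones, in the same order from low to high within each group as *Cldn9*. The summed placode and endothelial markers had the same order in both groups. The part of these lists in the level of *Cldn9* was not tested. The second probe set (1450524_at, absent in maxilla) differed by 1.79 (SE 0.10).

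*Pcdh20*, a non-clustered protocadherin of cell-cell adhesion, was called absent in maxillary tissue by its main probe set. It read 6.32, 6.21 and 6.51 in Neo/Null nasal pools, against 3.87, 3.80 and 4.27 in Neo/Null maxillary pools, and 5.89, 6.22 and 6.62 in Neo/Wt nasal pools, against 4.44, 4.30 and 3.75 in Neo/Wt maxillary pools. The Neo/Null difference was 2.37 (SE 0.13), or at least 5.16-fold (limma, adjusted p = 4.13e-05). The other probe set, 1424701_at, was called present in maxillary tissue and differed by 2.80 (SE 0.16).

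*Fam107a* encodes an actin-associated protein and had 3 probe sets, of which only 1434202_a_at was not called absent in maxilla. The main one, absent in maxilla, read 7.24, 7.01 and 7.0 in Neo/Null nasal pools, against 4.82, 4.81 and 4.94 in Neo/Null maxillary pools, and 6.77, 6.97 and 6.88 in Neo/Wt nasal pools, against 4.50, 4.83 and 4.71 in Neo/Wt maxillary pools. Its Neo/Null difference was 2.23 (SE 0.09), or at least 4.68-fold (limma, adjusted p = 6.47e-06). The probe set 1434202_a_at, with variable detection in maxilla, read 7.52, 7.69 and 7.56 in Neo/Null nasal pools, against 3.52, 3.33 and 3.69 in Neo/Null maxillary pools. Its difference of 4.07 (SE 0.10), or 16.8-fold, was the largest measured among the 20 probe sets. The third, 1435918_at, differed by 1.40 (SE 0.17), a lower bound.

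*Eps8*, which caps and bundles actin filaments, had the smallest difference of a main probe set. That probe set read 7.0, 7.01 and 6.50 in Neo/Null nasal pools, against 4.90, 4.84 and 5.08 in Neo/Null maxillary pools, and 6.94, 7.11 and 6.85 in Neo/Wt nasal pools, against 4.71, 5.01 and 5.02 in Neo/Wt maxillary pools. As for *Hpgd*, nasal replicate 3 was the lowest nasal pool in both genotypes. The Neo/Null difference was 1.89 (SE 0.14), or 3.72-fold (limma, adjusted p = 0.000208), with a 95% confidence interval of 1.57 to 2.22. The other probe sets of *Eps8* differed by 1.65 (SE 0.14; 1422823_at) and 1.60 (SE 0.11; 1425733_a_at) in Neo/Null, so that all 3 lay close together there. In Neo/Wt they were farther apart, at 2.05 for the main one, 1.74 for 1422823_at and 1.25 for 1425733_a_at. The last had variable detection in maxillary tissue of both genotypes.

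Seen over the 4 groups, each main probe set had the same order of tissues in both genotypes, with the nasal groups above the maxillary groups. Detection calls divided the genes in the same way in both genotypes. All 10 main probe sets were called present in nasal tissue, 7 were also called present in maxillary tissue, and *Htr3b*, *Fam107a* and *Pcdh20* were called absent there.

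**Figure D2:**
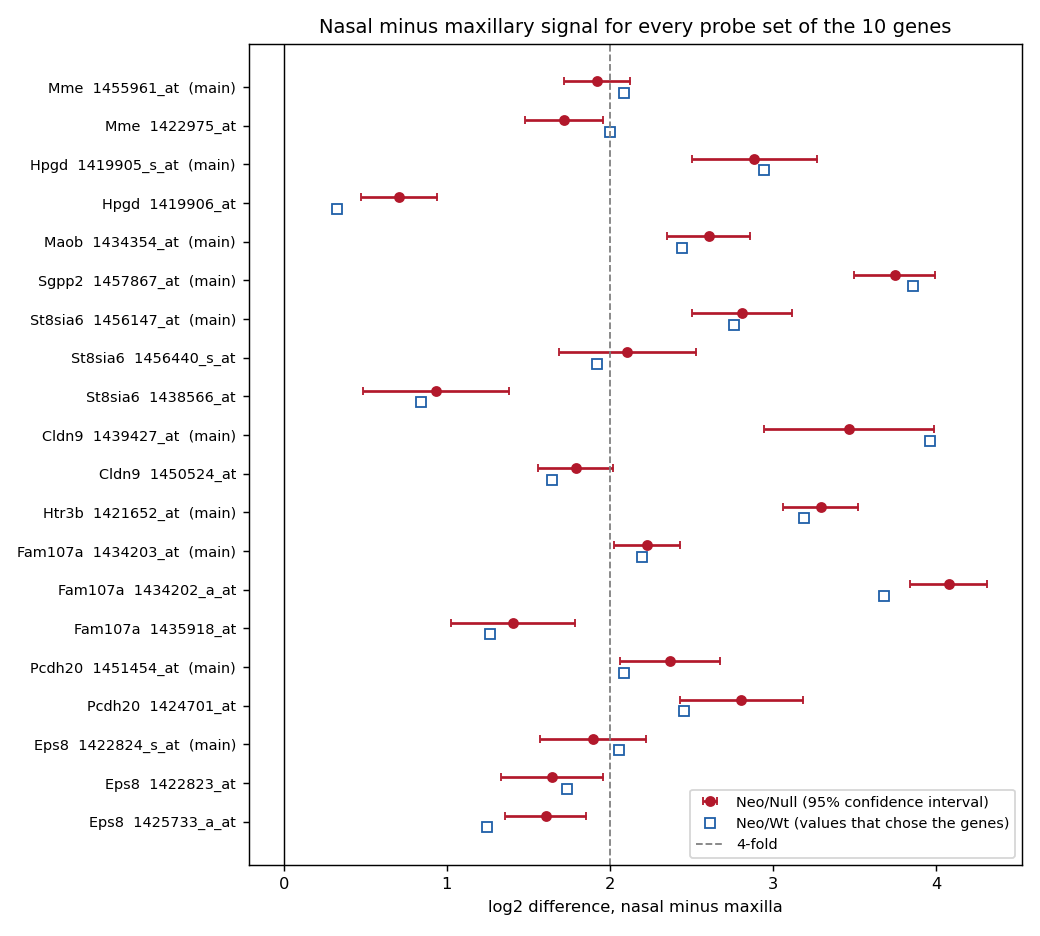
Nasal minus maxillary log2 signal (horizontal axis) of the 20 probe sets, with Neo/Null as filled circles with 95% confidence intervals and Neo/Wt as open squares, which are the values that chose the genes. All 20 lie right of 0; the 7 probe sets called absent in maxilla, among them the smaller ones of *Hpgd* and *Cldn9*, have only a lower bound.

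No gene of the 10 passed the test for genotype in nasal tissue. The Neo/Wt nasal arrays also chose the genes, so this comparison is not independent of the choice. Of the 10 main probe sets, all tested, 5 were higher and 5 lower in Neo/Null than in Neo/Wt nasal tissue, with a median difference of 0.02 on the log2 scale against 0.03 over all genes tested. 0 of the 19 probe sets called present in both genotypes passed the adjusted threshold in limma, and 0 had an unadjusted p under 0.05. Of all 21088 probe sets tested, 0.00474% (1 probe set) passed higher and 0% lower, and 3.88% had an unadjusted p under 0.05. The differences of the main probe sets ran between -0.13 (SE 0.14) for *Eps8* and 0.21 (SE 0.10) for *Fam107a*, and no adjusted p was below 0.999.

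*Fam107a* was the only gene whose main probe set did not overlap between the genotypes in nasal tissue. The 3 Neo/Null pools, at 7.24, 7.01 and 7.0, lay above the 3 Neo/Wt pools, at 6.77, 6.97 and 6.88. Such a lack of overlap, with Neo/Null above, was seen in 6.22% of the probe sets tested, and the reverse in 1.97%. The 95% confidence interval of the difference was -0.00 to 0.42, and its other probe sets differed by 0.19 (SE 0.14; 1434202_a_at) and -0.03 (SE 0.16; 1435918_at). For *Hpgd*, *Maob*, *Sgpp2* and *Pcdh20* the intervals of the main probe sets were -0.31 to 0.55, -0.27 to 0.42, -0.41 to 0.26 and -0.33 to 0.53. For *Mme*, *St8sia6* and *Htr3b* they were -0.23 to 0.11, -0.36 to 0.35 and -0.30 to 0.24. These intervals bound the change and do not show that the levels were alike. *Cldn9* had the widest, -0.66 to 0.73, because limma used 1 spread per probe set over all 4 groups and that of *Cldn9* was large in maxillary tissue.

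In maxillary tissue, the 7 main probe sets called present in both genotypes were tested. 5 were higher and 2 lower in Neo/Null, with a median of 0.03 on the log2 scale against -0.02 over all genes tested, and 0 of 10 probe sets passed the adjusted threshold in limma or had an unadjusted p under 0.05. Among the 21213 probe sets tested there, 0% passed and 4.97% had an unadjusted p under 0.05. The genotypes overlapped in all 10, whereas Neo/Null lay wholly above Neo/Wt in 6.41% of the probe sets tested and wholly below in 5.22%. *Eps8* 1425733_a_at was not tested, since its maxillary detection was variable in both genotypes. That probe set was lower in Neo/Null by -0.30 (SE 0.10), with a 95% confidence interval of -0.52 to -0.07 (limma, unadjusted p = 0.0129). Its Neo/Null maxillary pools all lay below its Neo/Wt maxillary pools. The largest difference was that of *Cldn9*, 0.53 (SE 0.32), with a 95% confidence interval of -0.17 to 1.23 (limma, adjusted p = 0.996). It rested on Neo/Wt maxilla replicate 1, the pool with the lowest *Cldn9* signal, and was 0.09 without that pool, 0.25 without Neo/Null maxilla replicate 3 and 0.86 without Neo/Wt maxilla replicate 3. Neo/Wt maxilla replicate 1 also had the lowest summed surface ectoderm signal (5989) and the lowest summed placode signal (1952) of the 6 maxillary pools. The other 6 differences ran between -0.09 (SE 0.16) for *Maob* and 0.18 (SE 0.20) for *Hpgd*.

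The difference between nasal and maxillary tissue was also compared between the genotypes. It was larger in Neo/Null for 5 of the 10 main probe sets and smaller for 5, with a median of -0.01 on the log2 scale. 0 of 10 main and 0 of 20 probe sets passed the adjusted threshold in limma (0% of all 45037), with a smallest adjusted p of 0.999. 2 of the 20 had an unadjusted p under 0.05, against 4.42% of all probe sets, and neither was a main one: *Hpgd* 1419906_at (0.38, SE 0.15) and *Eps8* 1425733_a_at (0.36, SE 0.14). Both differences were larger in Neo/Null. The main probe sets of the same genes had values of the other sign, -0.06 (SE 0.28) for *Hpgd* and -0.16 (SE 0.19) for *Eps8*. The widest interval was again that of *Cldn9*, -1.48 to 0.49 around -0.50.

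**Figure D3:**
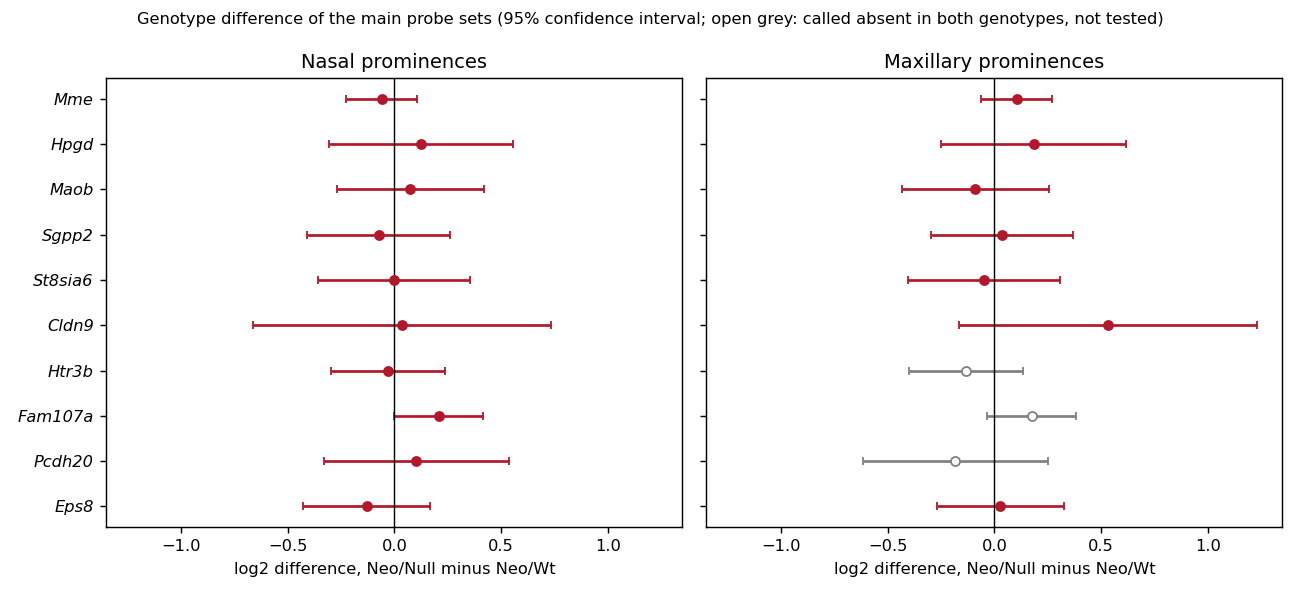
Neo/Null minus Neo/Wt log2 difference (horizontal axis) of the main probe set of each gene with its 95% confidence interval, in nasal prominences (left) and maxillary prominences (right); open grey circles are probe sets called absent in both genotypes and not tested. Every interval includes 0, with *Fam107a* in nasal tissue at its edge (-0.00 to 0.42), and *Cldn9* has the widest interval in both tissues.

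Pools within a group differed in ways that some of the genes shared. Nasal replicate 3 deviated from its group mean for *Hpgd* by -0.38 in Neo/Null and -0.46 in Neo/Wt, and for *Eps8* by -0.34 and -0.12. It deviated the other way for *St8sia6* (0.18 in Neo/Null and 0.42 in Neo/Wt), *Pcdh20* (0.16 and 0.38) and *Maob* (0.10 and 0.28). The summed signal of the maxillary and first arch mesenchyme markers was also lower in these pools, at 288 in Neo/Null and 296 in Neo/Wt, against 421-489 in the 4 other nasal pools. Other lists also moved in these pools. The sums for frontonasal mesenchyme (4894 in Neo/Null and 5053 in Neo/Wt), neurons (1918 and 1780) and macrophages (484 and 507) were the lowest among the nasal pools of each genotype. The placode sum was the highest (3594 and 3332). By the mean log2 deviation over that list, replicate 3 was highest only in Neo/Wt (0.06). In Neo/Null it was -0.01, below replicate 1 (0.05). The part of these lists in the 5 genes was not tested. Without Neo/Null nasal replicate 3, the Neo/Null difference between the prominences was 3.08 for *Hpgd* and 2.06 for *Eps8*, and both passed (limma, adjusted p = 2.99e-05 and 7.00e-05). Among the maxillary pools, Neo/Wt replicate 3 stood apart in neuron markers, with a summed signal of 1842 against 4500 and 3829 in the other Neo/Wt pools. It was the lowest Neo/Wt maxillary pool for *Sgpp2* (4.33) and *Pcdh20* (3.75). For *Mme* (6.70), *Maob* (5.70), *St8sia6* (3.70), *Cldn9* (4.70), *Htr3b* (3.219) and *Eps8* (5.02) it was the highest. For *Hpgd* and *Fam107a* it lay between the other Neo/Wt maxillary pools.

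**Figure D4:**
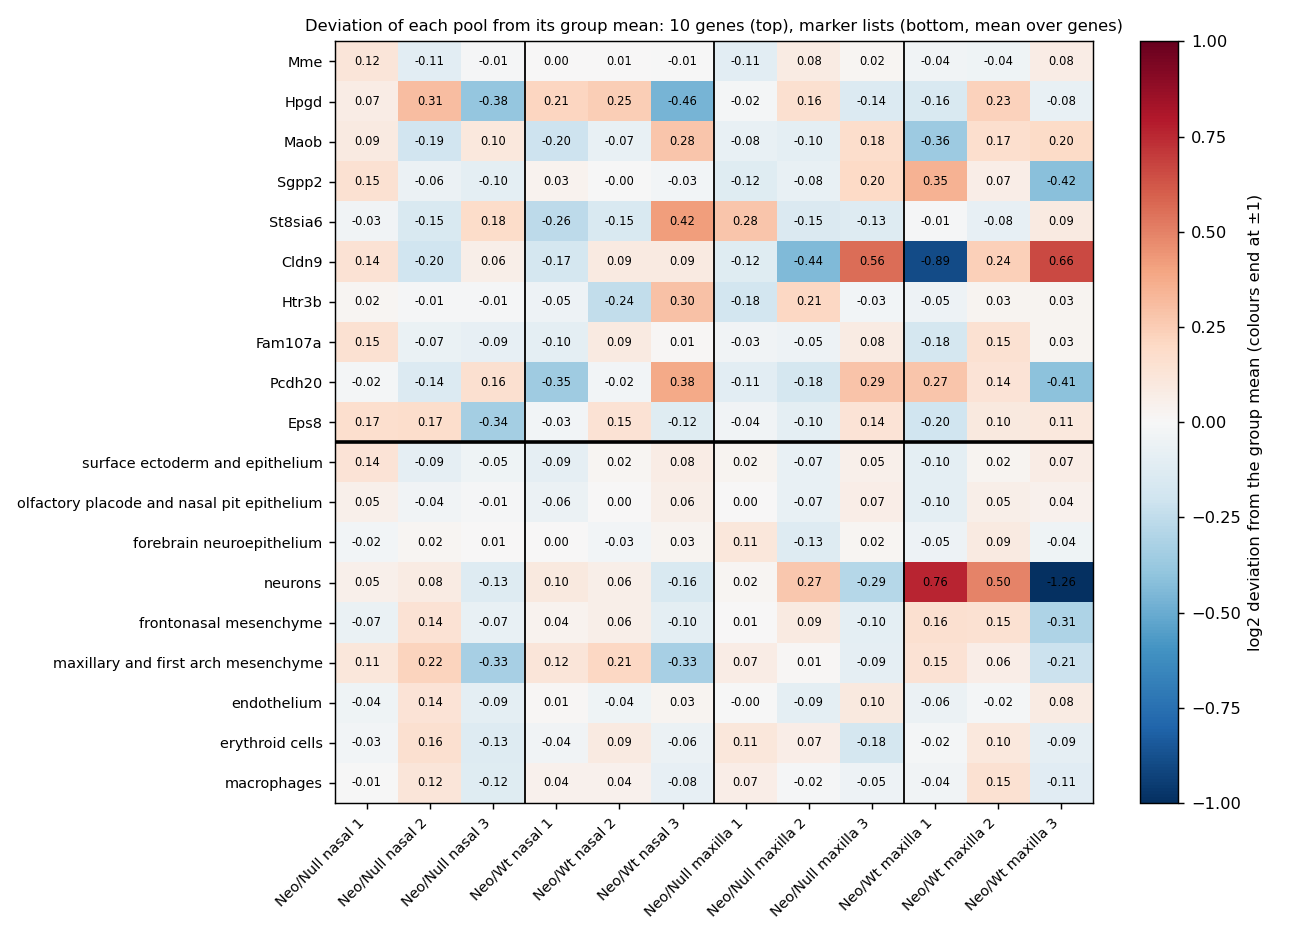
Log2 deviation of each of the 12 pools (columns) from its group mean, for the main probe sets of the 10 genes (upper rows) and for the mean over the genes of each marker list (lower rows); colours end at 1 and -1. Nasal replicate 3 is low for *Hpgd* and *Eps8* and, most among the lists, for the maxillary mesenchyme markers in both genotypes. The neuron, frontonasal mesenchyme, erythroid and macrophage lists are also negative there. *Cldn9* has the strongest colours among the genes, in the maxillary pools.

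Most of the listed relatives and pathway partners of the 10 genes did not pass between the Neo/Null prominences. Of 183 such genes listed, 174 were measured, and in Neo/Null 13 were higher and 5 lower in nasal tissue, 156 did not pass, and 0 reached 4-fold. These counts are 7.47% and 2.87% of the listed genes measured, against 3.58% and 1.9% of all genes, so both shares were above those of all genes. Each list held genes called absent in all 4 groups, from 1 actin regulator to 9 serotonin receptors and related channels. *Sgpp1*, the other sphingosine-1-phosphate phosphatase, was lower, at -0.38 (SE 0.08; limma, adjusted p = 0.0320) and was the only one of 20 genes of that pathway to pass. *Maoa*, the close relative of *Maob*, had 0.12 (SE 0.07; limma, adjusted p = 0.555), and 0 of 15 monoamine genes passed. *Mmel1*, related to *Mme*, was called absent in both Neo/Null tissues, and 0 of 12 peptidases passed. *Htr3a*, which encodes the partner subunit of *Htr3b*, read -0.01 (SE 0.08; limma, adjusted p = 0.981) with variable detection in both Neo/Null tissues.

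The prostaglandin and sialic acid lists each had genes that differed. Of 20 prostaglandin genes 3 were higher, namely *Abcc4*, an efflux pump, by 1.29 (SE 0.08), and the receptors *Ptgfr*, by 1.07 (SE 0.16), and *Ptger4*, by 0.55 (SE 0.10). The phospholipase *Pla2g4a*, which releases arachidonic acid, was lower, at -0.73 (SE 0.12). Both receptors were called absent in Neo/Null maxillary tissue, and *Ptger4* had only variable detection in Neo/Null nasal tissue. Of 26 sialic acid genes only *St8sia4*, a polysialyltransferase, passed, and it was lower, at -1.21 (SE 0.14; limma, adjusted p = 0.00194).

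Of the lists, which differ in length, that of claudins and tight junction genes had the most genes that passed by count. By share of the genes measured, the protocadherin list was higher. Over all genes, 3.58% passed higher and 1.9% lower. Of 24 claudins and tight junction genes, 4 were higher, *Cldn10* by 1.51 (SE 0.15), *Cldn3* by 1.32 (SE 0.11), *Cgn* by 0.96 (SE 0.16) and *Ocln* by 0.75 (SE 0.11). *Cldn1* was lower, at -0.55 (SE 0.09), and was called absent in Neo/Null nasal tissue. *Cldn6* had 0.43 (SE 0.10) and did not pass (limma, adjusted p = 0.0507). Of 16 protocadherins, *Pcdh19* was higher by 1.66 (SE 0.12), *Pcdh8* by 0.79 (SE 0.13) and the giant cadherin *Fat4* by 0.77 (SE 0.13), whereas *Pcdh17* was lower, at -1.16 (SE 0.11). Among the actin regulators, *Espn*, a bundling protein, was the only one of 18 to pass, higher by 0.67 (SE 0.08). Its detection was variable in Neo/Null nasal tissue, and it was called absent in the 3 other groups. *Fam107b* had -0.26 (SE 0.09; limma, adjusted p = 0.235). Of 23 serotonin receptors and related channels, the acetylcholine receptor subunits *Chrnb1* and *Chrna7* were higher by 0.63 (SE 0.10) and 0.55 (SE 0.11). *Chrnb1* had variable detection in Neo/Null nasal tissue and was called absent in all other groups.

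**Figure D5:**
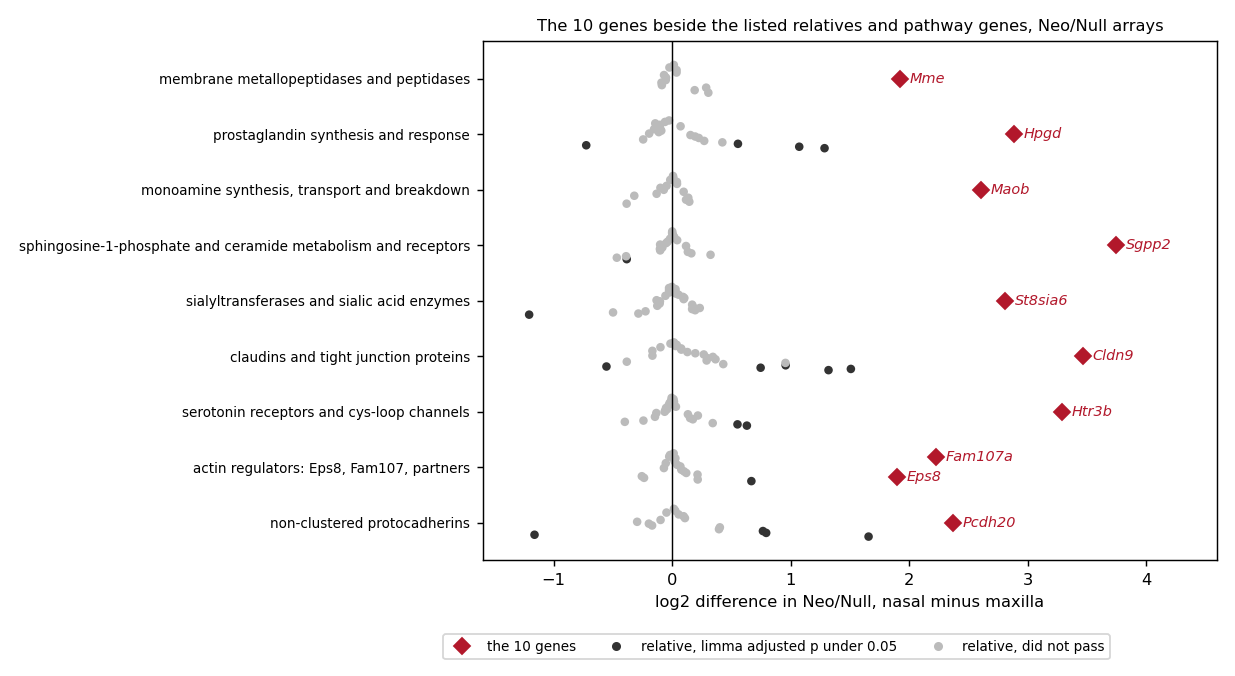
Nasal minus maxillary log2 difference in Neo/Null (horizontal axis) for the 10 genes (diamonds) and 174 listed relatives and pathway genes (circles; dark, limma adjusted p under 0.05), 1 row per list. The relatives lie between -1.21 and 1.66 and the 10 genes between 1.89 and 3.75.

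Some genes outside the set followed these genes closely across the arrays. Likeness was measured as the root mean square difference between log2 profiles over the 12 arrays, each centred on its own mean. The profiles nearest to the mean of the 10 genes were those of *Dmrt3* (0.233), *C130071C03Rik* (0.271), *Gm2102* (0.280), *Dlx6os1* (0.281) and *3110039M20Rik* (0.284). Of the 10 genes, *Maob* lay nearest to their mean (0.176) and *Cldn9* farthest (0.618). Single neighbours were *Dmrt3* for *Maob* (0.119), *Dlx6os1* for *Htr3b* (0.145), *Crym* for *Eps8* (0.166), *Wscd1* for *Fam107a* (0.168) and *Col14a1* for *Pcdh20* (0.209). *Mme* lay nearest to *Eps8* (0.168) and *St8sia6* to *Maob* (0.240). *Cxcl13* was the nearest gene to both *Sgpp2* (0.315) and *Hpgd* (0.327), and *Sp8* to *Cldn9* (0.463). These distances are descriptive, and all the profiles named share the step between the prominences.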

How the data were processed

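Nasal and maxillary prominences were profiled on Affymetrix mouse arrays, 1 pool per array. What the authors deposited is a log2 signal for each probe set, scaled by 1 factor per array in their software. The deposited table's heading speaks of MAS signals and of no logarithm, so the way probes were combined is not settled. The deposited detection score of each group (present, variable or absent) was used as given, and 12 columns that repeat the signals were not used. 64 control probe sets were left out. Log2 values ran between 2.07 and 14.3, with array medians of 5.13-5.19. Arrays give no depth, and their number limits the precision.

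Gene names were those of the platform annotation: 34945 probe sets had 1 symbol, 932 several and 9160 none. Models with 1 mean per group were fitted with limma 3.58.1 in R 4.3.3 (lmFit, eBayes), to the 6 Neo/Null arrays for the prominences and to all 12 arrays for genotype, with 4 and 8 residual degrees of freedom. P-values were adjusted after Benjamini and Hochberg over all probe sets or, for genotype, those called present in both genotypes of the tissue. The fits were tested on simulated data.

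The 10 genes and the lists were chosen with earlier results of these data known. Named are the 10 genes, their closest relatives, up to 3 genes per list with the smallest p among those past the threshold, and the nearest profiles. *Cgn*, *Cldn1*, *Ptger4* and *Fat4* were added after their values were seen, as were the marker genes named. Alternatives were other scalings, an offset of 32 before log2, other variance models, array weights, the replicate block, the mean over probe sets, other filters and leaving out each array.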

Additional observations from a re-analysis of the deposited data

How the results depend on the processing

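All 10 genes stayed higher in Neo/Null nasal than maxillary tissue, past the adjusted threshold of limma, under 9 other settings and without each of the 6 arrays, with log2 differences of 1.22 to 3.84 and a largest adjusted p of 0.00324. An offset of 32 before log2 lowered their median difference to 1.57, since it shrinks differences that rest on dim signals. No gene passed for genotype or for the difference between prominences under any setting run, with smallest adjusted p of 0.726 in nasal tissue, 0.382 in maxillary tissue and 0.746 for the difference.

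Small genotype differences changed sign with the setting, and the cause was not tested. In nasal tissue, *Cldn9* was -0.0041 after quantile normalization and -0.050 with array weights, *St8sia6* 0.016 after median centring, 0.019 with array weights and 0.065 as the mean of its probe sets, and *Htr3b* 0.055 with array weights. In maxillary tissue, array weights gave -0.082 for *Sgpp2* and 0.037 for *St8sia6*, and the mean of its probe sets -0.077 for *Eps8*. For the difference between prominences, *Fam107a* was -0.0077 after quantile normalization and -0.013 with array weights, *St8sia6* -0.018 with array weights, and the mean of all probe sets gave 0.159 for *Hpgd* and 0.0355 for *Eps8*.

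Leaving out single arrays gave, in nasal tissue, -0.133 to 0.207 for *St8sia6*, -0.052 to 0.136 for *Cldn9*, -0.109 to 0.315 for *Hpgd*, -0.217 to 0.039 for *Eps8*, -0.027 to 0.214 for *Maob*, -0.076 to 0.290 for *Pcdh20* and -0.151 to 0.118 for *Htr3b*. In maxillary tissue it gave -0.188 to 0.026 for *St8sia6*, -0.173 to 0.208 for *Sgpp2*, -0.073 to 0.082 for *Eps8* and -0.271 to 0.0085 for *Maob*. For the difference between prominences it gave -0.044 to 0.122 for *Fam107a*, -0.292 to 0.132 for *Hpgd*, -0.085 to 0.255 for *St8sia6*, -0.245 to 0.011 for *Eps8*, -0.017 to 0.252 for *Htr3b* and -0.282 to 0.099 for *Sgpp2*.

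Pools of the same number had correlations of their deviations across probe sets of 0.12, 0.10 and -0.06 between Neo/Null nasal and maxillary pools. Pools of different number had -0.22 to 0.13 there. Between genotypes in nasal tissue the same-number values were -0.27, 0.08 and -0.05, against -0.19 to 0.21 for different numbers. In these comparisons the numbers were not shown to pair the pools. Between genotypes in maxillary tissue the same-number values were 0.09, 0.09 and 0.33, against -0.25 to 0.19 for different numbers. The value of 0.33 lay above all pairs of different number, and whether the numbers pair the pools there is not settled. Between Neo/Wt nasal and maxillary pools the same-number values were 0.17, 0.13 and 0.20, against -0.15 to -0.00 for different numbers. There every same-number value lay above those of different number, though neither the labels nor the methods say that numbers pair the pools. Whether they do is not settled, and it bears on the difference between prominences compared between genotypes. With the replicate block, the calls among the 10 genes were 10 for the prominences and 0 for the genotype in either tissue and for the difference. Over all probe sets the block moved the calls to 937 higher and 639 lower between the Neo/Null prominences, against 1049 and 700 without it, and in maxillary tissue to 1 higher and 3 lower, against 0.

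Dim signals limit the values: 3 of the 10 main probe sets and 7 of the 20 probe sets were called absent in maxillary tissue, where the level is only a bound. Each group had 3 pools, and 3 against 3 could not go below 0.10 in an exact permutation test.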
